A study of Mus musculus with 22 samples.

Results

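The genes described here are 10 components of the Notch pathway, picked by symbol and matched to their Ensembl identifiers, out of 41388 genes counted in each library. They comprise the 4 receptors Notch1, Notch2, Notch3 and Notch4, the ligands Jag1, Jag2, Dll1 and Dll4, and the target genes Hes1 and Hey1. RNA had been sequenced from stromal cells of PyMT-BO1 mammary tumors, called MMTV-BO1 in the sample labels, after separation from the GFP+ tumor cells and sorting for TdTomato and CD45. TdTomato marks cells in which Osx-cre was or had been active while not repressed, and their progeny (TdTOSX+, Osx+ in the labels), and CD45 is the common surface marker of leukocytes. The 22 libraries fall into 8 groups, 4 populations in each of 2 genotypes, with 2 libraries of Osx+ CD45- cells (TdTOSX single positive) and 3 of each other population (Osx+ CD45+ or double positive, Osx- CD45+ or CD45 single positive, and Osx- CD45- or double negative) per genotype.

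All mice were of the C57BL/6 strain at postnatal day 56 and carried the Ai9 TdTomato reporter. The mice labelled wild type were Osx-cre;Ai9, so that they carried the Cre transgene too, and 4 were inoculated. The mice labelled Cdh2-cKO;Ai9 carried a conditional knockout of Cdh2, the gene of N-cadherin, and 6 were inoculated. The Cre that deleted Cdh2 is not named in the labels. Osx-cre is driven by the Sp7 promoter through a doxycycline-repressible element, and the study's text says that experiments after its first ones used mice fed doxycycline in early life, so that Cre activity before then would not be recorded. The labels do not give the diet of these mice or say which mouse gave which library. The labels call the libraries biological replicates, without saying whether each came from a different mouse, so that the p-values measure the spread between these libraries.

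Notch receptors are single-pass membrane proteins that are activated by Jagged and Delta-like ligands on neighbouring cells. Ligand binding exposes the receptor to cleavage by an ADAM protease and then by gamma-secretase, and the freed intracellular part enters the nucleus, where it joins RBPJ and Mastermind proteins at genes such as those of the HES and HEY repressors. In vascular tissue, Dll4 and Notch4 are known from endothelial cells and Notch3 from pericytes and vascular smooth muscle, while Notch signals in blood cells are best known for the choice of the T cell fate.

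All 10 genes passed the filter of more than 1 CPM (counts scaled to a common library total) in at least 2 libraries, which left 15018 genes to test. Notch1, Notch2, Jag1 and Hes1 exceeded 1 CPM in all 22 libraries, while Jag2 did so in 13, Notch3 and Notch4 in 11, Dll4 in 10, Hey1 in 9 and Dll1 in 6. The reads counted per library ranged from 17267392 to 23157130 in the wild type and from 16594228 to 26784003 in Cdh2-cKO. At that depth 3 reads, taken as the smallest usable signal, amount to between 0.103 and 0.201 normalized CPM. All levels below are TMM-normalized CPM unless RPKM (CPM per kilobase of gene length) is named, and intervals of counting error were not added because the spread between libraries was larger.

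The sort was checked on marker genes. The summed level of 8 leukocyte markers ranged from 12737 to 15837 CPM in the 12 CD45+ libraries and from 68.9 to 8134 CPM in the 10 CD45- libraries, the highest of these being wild type Osx- CD45- replicate 3. Leukocyte markers also reached 2010, 5021 and 2166 CPM in 3 of the 4 Osx+ CD45- libraries, against 68.9 CPM in wild type replicate 1. The summed 8 fibroblast markers ranged from 4265 to 59529 CPM in CD45- and from 63.3 to 222 CPM in CD45+ libraries. The summed 7 epithelial markers ranged from 33.8 to 1994.5 CPM (median 931) in CD45- and from 132 to 470 CPM (median 275) in CD45+ libraries. Of the 5 epithelial markers tested, 3 were lower and 2 higher in CD45+ cells. Whether these reads came from tumor cells was not tested. The summed 12 endothelial markers ranged from 65.1 to 612 CPM in CD45- libraries and from 14.6 to 221 CPM in CD45+ libraries. The CD45+ library at 221 CPM was wild type Osx- CD45+ replicate 2, which also held 3474 CPM of B cell and 2997 CPM of T cell markers, against at most 21.7 and 687 CPM in the other CD45+ libraries. Its neutrophil markers summed to 848 CPM, against at most 95.8 CPM in the other CD45+ libraries. Its macrophage markers summed to 4823 CPM, against at least 14972 CPM in the others. Sp7, the gene of Osx itself, had no read in 19 of 22 libraries and at most 1 read in the others, so that the Osx label rests on the reporter and not on current transcription. Cdh2, the targeted gene, was counted at 9.13 and 5.19 CPM in wild type and at 17.2 and 13.1 CPM in Cdh2-cKO Osx+ CD45- libraries, so that the whole-gene count did not show a loss (log2 difference 1.08, SE 0.84, adjusted p = 0.668, edgeR quasi-likelihood test). In Osx- CD45- cells every library labelled Cdh2-cKO was above every wild type library (12.5, 18.4 and 14.2 against 6.02, 7.47 and 4.52 CPM, log2 difference 1.32, SE 0.69, adjusted p = 0.623), and in CD45+ libraries Cdh2 reached at most 2.74 CPM. Cdh2-cKO is therefore used here as the name the labels give, which these counts do not check. Which exons were deleted is not stated, and reads from the rest of the gene would still be counted.

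Per gene length, 3 of the 10 genes (Notch2, Jag1 and Hes1) stood above the others in both cell classes. In CD45- cells, the order by median RPKM over the 10 libraries was Jag1 (28.6), Hes1 (18.4), Notch2 (17.9), Dll4 (1.76), Notch3 (1.42), Notch1 (1.305), Hey1 (0.856), Notch4 (0.259), Dll1 (0.226) and Jag2 (0.169). In CD45+ cells, over 12 libraries, it was Notch2 (22.2), Jag1 (11.4), Hes1 (7.64), Notch1 (1.399), Jag2 (0.501), Notch4 (0.128), Dll4 (0.0711), Hey1 (0.0663), Notch3 (0.0649) and Dll1 (0.00651). In CD45- cells the ranges of the first 3 genes overlapped one another, and those of Dll4, Notch3, Notch1 and Hey1 did too. Between the third and the fourth gene there was a gap in both cell classes: the lowest Notch2 value in CD45- cells was 7.22 RPKM and the highest value among the 7 genes after it was 5.64 RPKM, of Notch3, and the lowest Hes1 value in CD45+ cells was 4.72 RPKM and the highest Notch1 value 2.64 RPKM.

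**Figure D1:**
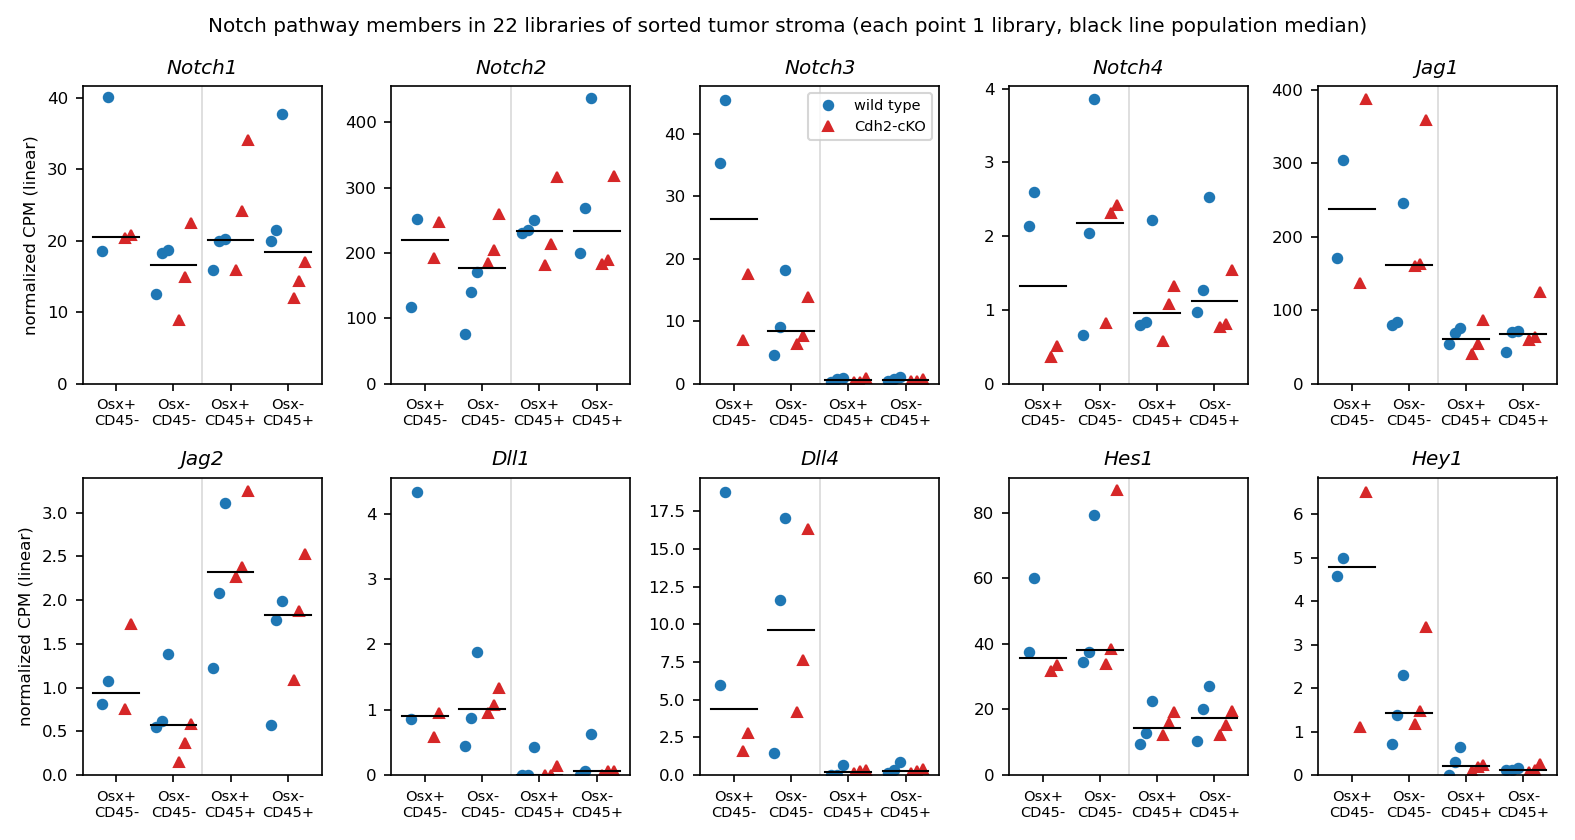
Normalized CPM on a linear axis for each of the 10 genes, with 1 point per library (blue circles wild type, red triangles Cdh2-cKO) in the 4 sorted populations and a black line at the population median. Notch3, Dll4, Hes1 and Hey1 show no overlap between CD45- libraries (left of the grey line) and CD45+ libraries (right), while Notch1 and Notch4 lie in the same range in both.

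The comparison of CD45+ with CD45- cells asks how the pathway was divided between the immune and the non-immune stroma. Of the 10 genes, 6 were lower in CD45+ cells (Notch3, Dll4, Hey1, Dll1, Jag1 and Hes1), 2 were higher (Jag2 and Notch2) and 2 did not pass the threshold (Notch1 and Notch4), at an adjusted p of at most 0.05 in the edgeR quasi-likelihood test with Benjamini-Hochberg adjustment over all genes. The background was high: 63.7% of the 15018 genes passed, 32.6% as higher and 31.1% as lower. Dll1, Dll4 and Hey1 exceeded 1 CPM in 0 CD45+ libraries and Notch3 in 1, against 6, 10, 9 and 10 CD45- libraries, so that these 4 of the 6 lower genes passed the filter through the cell class in which they were high. The counts and the median are therefore a description and not support for a direction of the pathway. The median log2 fold change was -1.56 over the 10 genes and 0.06 over all genes tested. In 4 genes (Notch3, Dll4, Hes1 and Hey1) every CD45+ library was below every CD45- library, a separation in this direction that 11.0% of all genes showed, and that the filter in part fixed for Notch3, Dll4 and Hey1. No member showed the opposite separation, which 3.71% of all genes did. Without wild type Osx- CD45+ replicate 2 and Osx- CD45- replicate 3, the libraries that stood apart in their markers, 7 genes passed, 6 as lower and Jag2 as higher.

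Among the receptors, Notch3 differed most between the cell classes. In the 4 Osx+ CD45- libraries it was counted at 45.4 and 35.3 CPM in wild type and 6.92 and 17.5 CPM in Cdh2-cKO, and in the 6 Osx- CD45- libraries at 4.57 at the lowest, 8.33 at the median and 18.2 CPM at the highest. In the 12 CD45+ libraries the lowest, median and highest values were 0.175, 0.522 and 1.03 CPM. Every CD45- library thus lay above every CD45+ library, by a log2 fold change of -4.77 for CD45+ over CD45- (SE 0.36, adjusted p = 5.0e-09, edgeR quasi-likelihood test), with means of 16.5 ± 13.6 CPM (SD, n = 10) and 0.546 ± 0.298 CPM (SD, n = 12). Notch3 (ENSMUSG00000038146) lies on the minus strand of chromosome 17 at 32120820-32166880 in GRCm38.

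Notch2, the receptor with the most reads, lay on chromosome 3 at 98013538-98150367 (ENSMUSG00000027878, plus strand) and was abundant in all populations. Its lowest, median and highest levels were 182, 233 and 438 CPM in the 12 CD45+ libraries and 75.9, 188 and 259 CPM in the 10 CD45- libraries. The ranges overlapped widely, and the highest CD45+ value came from wild type Osx- CD45+ replicate 2, a library that stood apart in its markers. The log2 fold change of 0.45 (SE 0.19) was past the threshold by a small margin (adjusted p = 0.0469, edgeR quasi-likelihood test), and 19 of 29 alternative fits lost the call, with log2 values between 0.34 and 0.50 and adjusted p of up to 0.140. Without that library the log2 fold change was 0.36 and the adjusted p 0.0868.

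Notch1, the receptor required for T cell development, had lowest, median and highest levels of 11.9, 19.9 and 37.6 CPM in CD45+ and 8.94, 18.6 and 40.1 CPM in CD45- libraries (log2 fold change 0.05, SE 0.19, adjusted p = 0.845, edgeR quasi-likelihood test). The highest CD45+ value was again that of wild type Osx- CD45+ replicate 2. Notch4 was the least abundant receptor per length in CD45- cells and had 0.582, 1.03 and 2.53 CPM in CD45+ against 0.365, 2.09 and 3.86 CPM in CD45- libraries, in the same order (log2 fold change -0.26, SE 0.34, adjusted p = 0.528). The ranges of both genes overlapped between the cell classes. Notch1 (ENSMUSG00000026923) lies at 26457903-26516663 on chromosome 2 (minus strand) and Notch4 (ENSMUSG00000015468) at 34564268-34588503 on chromosome 17 (plus strand). The library kit does not mark strand, so reads shared with genes that overlap Notch1 (3 genes in GENCODE M21), Notch2 (2) or Notch3, Notch4, Jag2, Dll1 and Dll4 (1 each) could not be told apart by strand.

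The 4 ligands followed no common direction. Jag1 (ENSMUSG00000027276, chromosome 2, 137081456-137116644, minus strand), the ligand with the most reads, was counted at 305 and 171 CPM in wild type and 136 and 388 CPM in Cdh2-cKO Osx+ CD45- libraries, and at 79.8, 161 and 359 CPM (lowest, median and highest) in Osx- CD45- libraries. In CD45+ libraries it ranged from 40.2 to 124 CPM with a median of 66.3 CPM. Single libraries overlapped across genotypes, because the highest CD45+ value was that of a Cdh2-cKO library (Osx- CD45+ replicate 2) and the lowest CD45- values came from the wild type, but within each genotype all CD45+ libraries were below all CD45- libraries. The log2 fold change was -1.65 (SE 0.26, adjusted p = 3.7e-05, edgeR quasi-likelihood test).

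Dll4, the Delta-like ligand of sprouting vessels, is on chromosome 2 at 119325784-119335962 (ENSMUSG00000027314, plus strand). It was counted at 5.97 and 18.8 CPM in wild type and 2.78 and 1.59 CPM in Cdh2-cKO Osx+ CD45- libraries. In Osx- CD45- libraries it was counted at 17.1, 11.6 and 1.49 CPM in wild type and 7.63, 4.17 and 16.3 CPM in Cdh2-cKO. The low wild type value of 1.49 CPM was that of the library with the highest leukocyte and lowest endothelial markers among the CD45- libraries. CD45+ libraries held at most 0.859 CPM, and 2 of the 12 had no read. The log2 fold change was -4.65 (SE 0.57, adjusted p = 2.2e-06, edgeR quasi-likelihood test), and it rests in CD45+ cells on 15 reads or fewer per library.

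Dll1 (ENSMUSG00000014773, chromosome 17, 15367354-15376872, minus strand) was near the limit of detection, with no read in 6 of 12 CD45+ libraries, a highest CD45+ value of 0.630 CPM and 0.441, 0.952 and 4.34 CPM (lowest, median and highest) in CD45- libraries. Both the highest CD45+ value (wild type Osx- CD45+ replicate 2) and the lowest CD45- value (wild type Osx- CD45- replicate 3) came from the libraries that stood apart in their markers. The log2 fold change was -3.64 (SE 0.69, adjusted p = 0.000199, edgeR quasi-likelihood test), a fitted value that depends on the prior count because most CD45+ libraries held fewer than 3 reads. Jag2 (ENSMUSG00000002799, chromosome 12, 112908590-112929495, minus strand) went the other way, with 0.573, 2.03 and 3.25 CPM in CD45+ and 0.145, 0.684 and 1.73 CPM in CD45- libraries (log2 fold change 1.33, SE 0.32, adjusted p = 0.00139). The ranges overlapped, and the lowest CD45+ value was again that of wild type Osx- CD45+ replicate 2.

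Both target genes were lower in CD45+ cells. Hes1 (ENSMUSG00000022528, chromosome 16, 30064384-30067796, plus strand), a repressor of the HES class that other pathways also induce, had 9.60, 15.6 and 27.0 CPM in CD45+ and 31.7, 37.5 and 86.8 CPM in CD45- libraries (lowest, median and highest). Hey1 (ENSMUSG00000040289, chromosome 3, 8663362-8667039, minus strand), its relative of the HEY class, had 0, 0.146 and 0.633 CPM in CD45+ and 0.716, 1.89 and 6.52 CPM in CD45- libraries. Neither gene overlapped between the cell classes. The log2 fold changes were -1.48 for Hes1 (SE 0.23, adjusted p = 2.7e-05) and -3.88 for Hey1 (SE 0.46, adjusted p = 1.6e-06, edgeR quasi-likelihood test). The Hey1 value rests in CD45+ cells on 12 reads or fewer per library. Its median there is at the level of 3 reads (0.103 to 0.201 CPM), so that the size of the fold depends on the prior count. In this bulk RNA, fewer cells of a type and less RNA per cell cannot be told apart, and markers moved with all 6 genes that were lower in CD45+ cells: all 12 endothelial markers, all 8 fibroblast markers and 9 of 10 mural markers (pericyte and smooth muscle genes) were lower there too. Their part in the result was not tested.

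Within each genotype the division was similar. In the wild type 6 genes were lower and Notch2 was higher, where 51.1% of all genes passed (25.3% higher, 25.7% lower), and in Cdh2-cKO the same 6 genes were lower and Jag2 was higher, where 50.7% passed (23.6% higher, 27.1% lower). Libraries did not overlap for 5 genes in the wild type (Notch3, Jag1, Dll4, Hes1 and Hey1) and for these and Dll1 in Cdh2-cKO, against 14.2% and 21.5% of all genes with this separation. The opposite separation was seen for 0 members, against 6.95% of all genes in the wild type and 17.6% in Cdh2-cKO. For Jag2 the log2 fold change was 0.97 (SE 0.44, adjusted p = 0.0759) in the wild type and 1.69 (SE 0.45, adjusted p = 0.00503) in Cdh2-cKO, and for Notch2 it was 0.80 (SE 0.27, adjusted p = 0.0207) in the wild type and 0.10 (SE 0.27, adjusted p = 0.776) in Cdh2-cKO, in the edgeR quasi-likelihood test. Without wild type Osx+ CD45- replicate 1 the wild type calls of Notch2 (log2 0.57, adjusted p = 0.129) and Dll1 (log2 -2.35, adjusted p = 0.0578) were lost, and without wild type Osx- CD45+ replicate 2 that of Notch2 was lost (0.62, adjusted p = 0.0554) and Jag2 was called (1.16, adjusted p = 0.0270). Jag2 was also called in the wild type without Osx- CD45- replicate 1 (1.24, adjusted p = 0.0372). With voom on all libraries both calls in the wild type changed, as Notch2 was not called (0.63, adjusted p = 0.0548) and Jag2 was (1.29, adjusted p = 0.0462). The difference between the genotypes' CD45 effects was tested itself, and 0 of the 10 genes passed (0 at an unadjusted p under 0.05, and 0 with voom or DESeq2). No gene of the 15018 passed in edgeR, a background of 0%. The smallest adjusted p among the members was 0.672.

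**Figure D2:**
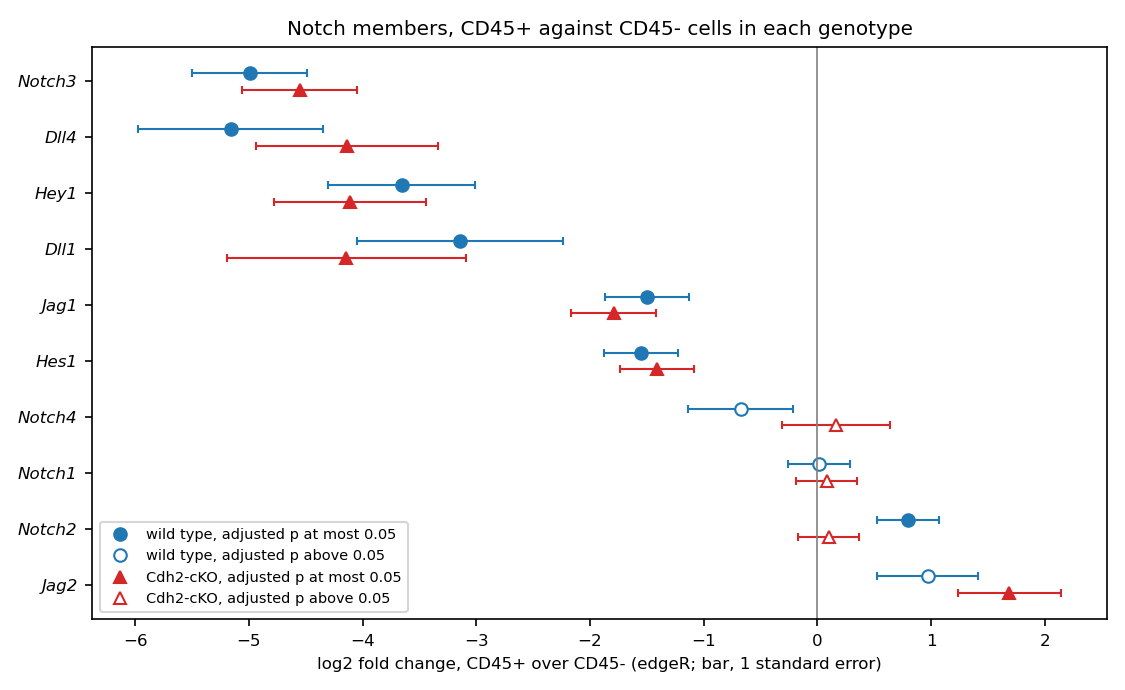
Log2 fold changes of CD45+ over CD45- cells in the wild type (blue circles) and in Cdh2-cKO (red triangles), with bars of 1 standard error from edgeR and filled symbols where the adjusted p was at most 0.05. Notch3, Dll4, Hey1, Dll1, Jag1 and Hes1 lie left of 0 in both genotypes, and Notch2 is filled in the wild type alone and Jag2 in Cdh2-cKO alone.

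The start regions of 2 genes that separated the cell classes and of Notch2, which is abundant in both, are shown for comparison. RefSeq entries (GRCm38.p6) were found for 8 of the 10 genes, with 2 starts for Dll1, and not for Hes1 and Hey1. The 250 bases before the annotated start are printed 5′ to 3′ on the strand of the gene, with GC boxes (GGGCGG or its reverse complement CCGCCC) in capitals. They are those of Notch3 (chr17:32166891-32167140, minus strand), Dll4 (chr2:119325534-119325783, plus strand) and Notch2 (chr3:98013288-98013537, plus strand).
Notch3: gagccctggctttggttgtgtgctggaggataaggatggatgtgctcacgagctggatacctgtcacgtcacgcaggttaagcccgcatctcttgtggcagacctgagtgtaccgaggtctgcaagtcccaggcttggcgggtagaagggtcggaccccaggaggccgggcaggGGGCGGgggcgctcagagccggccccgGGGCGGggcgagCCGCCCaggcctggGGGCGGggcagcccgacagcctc
Dll4: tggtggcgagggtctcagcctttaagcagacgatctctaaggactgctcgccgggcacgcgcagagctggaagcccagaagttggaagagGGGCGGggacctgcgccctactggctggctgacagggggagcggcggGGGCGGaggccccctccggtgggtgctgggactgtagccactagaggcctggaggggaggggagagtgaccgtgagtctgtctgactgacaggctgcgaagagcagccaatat
Notch2: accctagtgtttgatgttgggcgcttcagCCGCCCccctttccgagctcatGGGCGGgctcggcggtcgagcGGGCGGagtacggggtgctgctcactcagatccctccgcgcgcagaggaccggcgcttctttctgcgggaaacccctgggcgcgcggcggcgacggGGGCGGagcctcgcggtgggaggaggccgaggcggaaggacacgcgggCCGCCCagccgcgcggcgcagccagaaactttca

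The GC box occurred 4 times in the Notch3 window, 2 times in that of Dll4 and 5 times in that of Notch2, and 5 of the 9 windows of members held it, against 32.7% of the 32851 windows in the table. The core motif of RBPJ, the DNA-binding partner of Notch (TGGGAA or TTCCCA), was in none of the 9 windows and in 21.6% of all windows. The E-box of the HES and HEY class (CACGTG, its own reverse complement) was in none of the 9 and in 6.02% of all. The GC content was 68.8% for Notch3, 65.6% for Dll4 and 72% for Notch2. A window without a match says only that these letters are not in it.

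Whether Osx lineage cells differed from the other cells of their class was tested separately in CD45- and in CD45+ libraries. In CD45- cells, 0 of the 10 genes passed (3 at an unadjusted p under 0.05, 0 with DESeq2 and 1 with voom), where 1.89% of all genes passed (1.23% higher, 0.659% lower). The libraries of every member overlapped, while 2.72% of all genes lay wholly higher and 2.14% wholly lower in Osx+ cells. The 3 were Notch3 (log2 1.16, SE 0.45, adjusted p = 0.169), Hey1 (1.31, SE 0.59, adjusted p = 0.237) and Notch1 (0.62, SE 0.28, adjusted p = 0.245), all with the larger mean in Osx+ cells in the edgeR quasi-likelihood test. Notch3 was the gene called by voom (log2 1.15, adjusted p = 0.0403). The fibroblast sum had medians of 30269 CPM in Osx+ and 9456 CPM in Osx- CD45- libraries, and the mural sum 2794 and 1262 CPM (0 of 8 and 0 of 10 markers called in edgeR, median log2 differences 1.14 and 0.996), and their part in the Notch3 value was not tested. Its means were 26.3 ± 17.3 CPM (SD, n = 4) in Osx+ and 9.93 ± 5.10 CPM (SD, n = 6) in Osx- CD45- libraries, and the Cdh2-cKO Osx+ library at 6.92 CPM was below 4 of the 6 Osx- libraries. Hey1 had 5.001 and 4.57 CPM in wild type and 1.10 and 6.52 CPM in Cdh2-cKO Osx+ CD45- libraries, against 0.716, 1.43 and 3.39 CPM (lowest, median and highest) in Osx- CD45- libraries. The Hey1 ranges met only through the Cdh2-cKO library at 1.10 CPM.

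Hes1, Notch4 and Dll4 had values of the opposite sign, which did not pass either: Hes1 had a log2 difference of -0.38 (SE 0.34, adjusted p = 0.571), Notch4 a log2 difference of -0.97 (SE 0.51, adjusted p = 0.307) and Dll4 one of -0.90 (SE 0.73, adjusted p = 0.524) for Osx+ over Osx- CD45- cells in the edgeR quasi-likelihood test. The median log2 difference of the 10 genes was 0.44, and that of all genes 0.07. In CD45+ cells 0 of 10 genes passed (0 at an unadjusted p under 0.05, and 0 with voom or DESeq2), where 0.00666% of all genes did, that is, 1 gene. There the log2 differences of the receptors ran from -0.19 for Notch4 (SE 0.45) to 0.14 for Notch1 (SE 0.26), and that of Jag2 was 0.54 (SE 0.40). All members overlapped, as did nearly all genes (0.0533% wholly higher, 0.0400% wholly lower). The difference between the Osx effects in CD45+ and CD45- cells passed for 0 of 10 genes in edgeR, with a smallest adjusted p of 0.573 (Notch3, log2 -1.28, SE 0.68), and for 0 with voom or DESeq2 (0 at an unadjusted p under 0.05, background 0.00666%).

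Within CD45- cells, the members varied with markers of different cell types. Over the 10 CD45- libraries, which differ in genotype, in Osx and in how many leukocytes they hold, Dll4 followed the summed endothelial markers with r = 0.94 and Notch4 with r = 0.85, both on a log2 scale. Notch3 followed the mural and the fibroblast markers (r = 0.93 and 0.94), and its r with the endothelial markers was 0.37. Dll1 and the leukocyte markers had r = -0.88. Between members, Dll4 and Notch4 had r = 0.89, Jag1 and Hey1 0.82, Notch3 and Hey1 0.76 and Notch3 and Notch1 0.75, while Notch2 had no r above 0 with any of the other 9 genes. These values describe 10 libraries and share their depth and composition. Notch4 and Dll4 were counted at 0.661 and 1.49 CPM in the library with 65.1 CPM of endothelial markers, and at 2.42 and 16.3 CPM in that with 612 CPM.

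**Figure D3:**
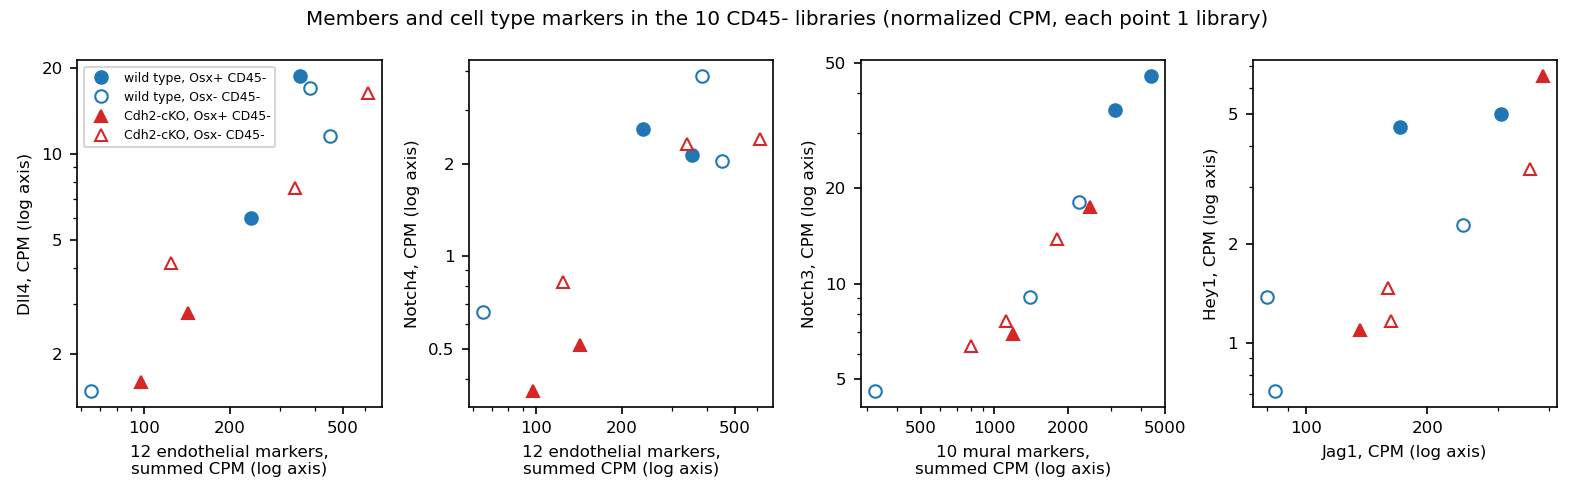
Normalized CPM on log axes in the 10 CD45- libraries, with 1 point per library (blue circles wild type, red triangles Cdh2-cKO, filled Osx+, open Osx-): Dll4 and Notch4 against 12 summed endothelial markers, Notch3 against 10 summed mural markers and Hey1 against Jag1. Both Cdh2-cKO Osx+ libraries lie at the low end of the endothelial axis, at 143 and 97.6 CPM, and of Dll4 and Notch4.

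The genes with the pattern most like each member over the same 10 libraries were the following, with Pearson's r of log2 CPM and as a description only. For Notch3 they were Vstm4 (0.99), the parathyroid hormone receptor gene Pth1r (0.99) and Tm7sf3 (0.98), and for Notch4 Tmem88, the endothelial transcription factor gene Erg and C130074G19Rik (0.95 each). Dll4 was nearest to C130074G19Rik (0.97), Cyp2j9 (0.96) and Tmem255a (0.96). Dll1 was nearest to Sh3pxd2a, Il11ra1 (0.97 each) and Gm38394 (0.96). Hey1 was nearest to Nkain4 (0.95), the gene of the matrix proteoglycan asporin Aspn (0.94) and Irs1 (0.93), and Jag1 to Serpind1 and 4833422C13Rik (0.93 each) and Fam167a (0.91). For Notch1 they were Vmac (0.95), Pias3 and Mau2 (0.94 each), for Notch2 Lyrm4 (0.97) and Gnb1 (0.93), for Jag2 Tmem200b (0.95), Fbxo17 (0.92) and Atpaf1 (0.91), and for Hes1 Ppp2r5e (0.93), A330069E16Rik and Pgrmc2 (0.92 each). C130074G19Rik was the only gene named for more than 1 member.

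The comparison of Cdh2-cKO with wild type mice was made within each population. In Osx+ CD45- cells, with 2 libraries per genotype, 0 of 10 genes passed (3 at an unadjusted p under 0.05, and 0 with voom or DESeq2), where 0.00666% of all genes, 1 gene, did. The 3 were Notch4 (2.60 and 2.13 CPM in wild type, 0.514 and 0.365 CPM in Cdh2-cKO), Notch3 (45.4 and 35.3 against 6.92 and 17.5 CPM) and Dll4 (5.97 and 18.8 against 2.78 and 1.59 CPM). Their log2 differences were -2.40 (SE 0.81, adjusted p = 0.351), -1.73 (SE 0.72, adjusted p = 0.435) and -2.50 (SE 1.17, adjusted p = 0.474) in the edgeR quasi-likelihood test. These and Hes1 (60.1 and 37.5 against 33.6 and 31.7 CPM) did not overlap between the genotypes, as 20.7% of all genes did not in this direction and 21.4% in the other with 2 libraries on each side. The sums of some markers were also lower in the Cdh2-cKO libraries. The endothelial sum was 238 and 353 CPM in wild type and 143 and 97.6 CPM in Cdh2-cKO, the mural sum 4412 and 3125 against 1190 and 2462 CPM, and the fibroblast sum 59529 and 32065 against 13671 and 28473 CPM. The leukocyte sum was 68.9 and 2010 CPM in wild type and 5021 and 2166 CPM in Cdh2-cKO. In edgeR, 0 of 12 endothelial, 0 of 10 mural, 0 of 8 fibroblast and 0 of 8 leukocyte markers were called. Their part in the differences was not tested.

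In Osx- CD45- cells 0 of 10 genes passed (0 at an unadjusted p under 0.05, and 0 with voom or DESeq2), with a background of 0%. Notch2 was the gene whose libraries did not overlap, at 75.9, 141 and 171 CPM in wild type and 184, 205 and 259 CPM in Cdh2-cKO (log2 0.74, SE 0.36, adjusted p = 0.534, edgeR quasi-likelihood test), a separation that 3.87% of all genes showed, with 5.35% in the other direction. Notch3, Notch4 and Dll4 had log2 differences of -0.19 (SE 0.57), -0.24 (SE 0.62) and -0.10 (SE 0.90) here. In Osx- CD45+ cells 0 of 10 genes passed (1 at an unadjusted p under 0.05, and 0 with voom or DESeq2, background 0%), and the 1 was Notch1, at 21.4, 37.6 and 19.9 CPM in wild type and 14.3, 17.0 and 11.9 CPM in Cdh2-cKO (log2 -0.87, SE 0.36, adjusted p = 0.466). Its libraries did not overlap, as 5.90% of all genes did not in this direction and 4.16% in the other. Its wild type maximum is the Osx- CD45+ library that stood apart in its markers. In Osx+ CD45+ cells 0 of 10 genes passed (0 at an unadjusted p under 0.05, and 0 with voom or DESeq2, background 0%), and all members overlapped, where 6.76% of all genes lay wholly higher and 6.05% wholly lower. The log2 differences of the receptors ran from -0.52 for Notch3 (SE 0.71) to 0.40 for Notch1 (SE 0.36).

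**Figure D4:**
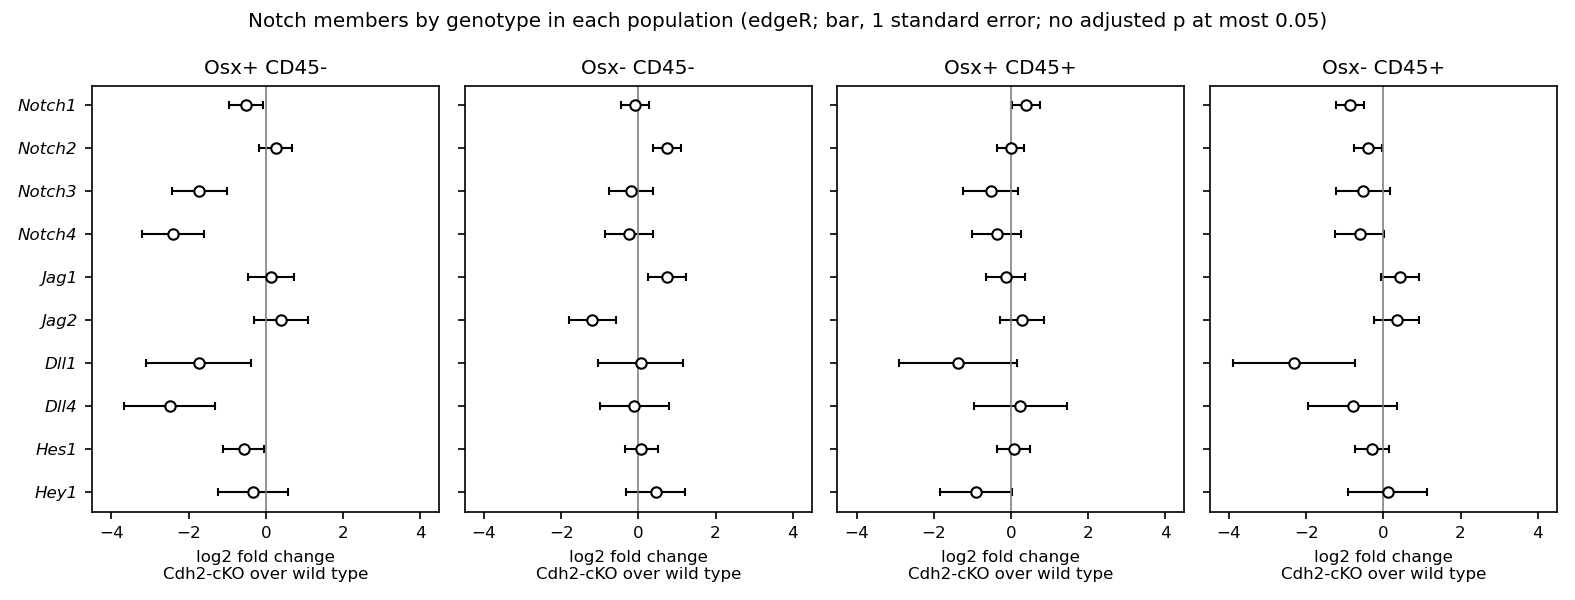
Log2 fold changes of Cdh2-cKO over wild type for the 10 genes in each of the 4 populations, with bars of 1 standard error from edgeR. No value passed an adjusted p of 0.05, and Dll4, Notch4, Dll1 and Notch3 lie farthest left in Osx+ CD45- cells, where each genotype has 2 libraries; the values of Dll1, Dll4 and Hey1 in CD45+ cells rest on few reads and depend on the prior count.

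The other genes of the pathway were taken as 6 lists of 53 genes in all, of which 46 passed the filter. Between CD45+ and CD45- cells 15 of the 46 were higher and 11 lower, with a median log2 fold change of 0.09, beside 32.6% of all genes as higher and 31.1% as lower and a median of 0.06. The counts by list that follow are to be read against these shares, and no list is called particular from them. Of 10 genes for cleavage of the receptor, 7 were higher in CD45+ cells and 0 lower (32.6% and 31.1% of all genes). Among these, Furin, the convertase that matures the receptor, had a median of 207 CPM in CD45+ and 66.1 CPM in CD45- libraries (log2 fold change 1.56, SE 0.21, adjusted p = 6.8e-06), and Adam17, a shedding protease, 142 and 57.9 CPM (1.10, SE 0.15, adjusted p = 7.1e-06, edgeR quasi-likelihood test). Furin overlapped between the cell classes (104.7 to 391 against 44.0 to 166 CPM), and Adam17 did too (89.0 to 157 against 41.6 to 92.4 CPM). The gamma-secretase subunit genes Aph1b and Aph1c are near-identical copies, and their split of reads, and with it the call of Aph1c among the 7, is uncertain.

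Of 5 genes for glycosylation of the receptor, 2 were higher and 1 lower. The 2 were the Fringe genes Lfng, at medians of 9.21 CPM in CD45+ and 1.82 CPM in CD45- libraries (log2 fold change 2.14, SE 0.28, adjusted p = 5.4e-06), and Mfng, at 29.5 and 7.88 CPM (2.13, SE 0.43, adjusted p = 0.000337, edgeR quasi-likelihood test). Fringe enzymes extend sugars on the receptor and shift its response from Jagged to Delta-like ligands. Of the 12 genes for trafficking of ligand and receptor 11 were tested, with 4 higher and 3 lower. Numbl, an adaptor related to the Notch inhibitor Numb, fell from a median of 3.15 CPM in CD45- to 0.442 CPM in CD45+ libraries (-3.07, SE 0.30, adjusted p = 1.6e-07), and Dtx3, a Deltex ubiquitin ligase, from 41.5 to 15.3 CPM (-1.501, SE 0.17, adjusted p = 9.7e-07).

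Of 15 genes of the nuclear complex, 1 was higher and 4 lower, a smaller share than the 63.7% called among all genes. Rbpj was the higher gene, at 53.5, 82.7 and 103 CPM in CD45+ and 17.4, 53.2 and 72.0 CPM in CD45- libraries (lowest, median and highest; log2 fold change 0.73, SE 0.15, adjusted p = 0.000404). Hdac2, a histone deacetylase of corepressor complexes, had medians of 19.8 and 32.1 CPM (-0.74, SE 0.13, adjusted p = 0.000123, edgeR quasi-likelihood test). Among 7 further targets 3 were tested, and 2 of these were lower. Heyl, the third HEY gene, had 0, 0.213 and 1.43 CPM in CD45+ and 7.82, 72.5 and 268 CPM in CD45- libraries (-7.73, SE 0.55, adjusted p = 2.9e-09). Nrarp, a feedback inhibitor of Notch, had 0, 0.245 and 1.89 CPM against 1.13, 2.52 and 5.72 CPM (-3.00, SE 0.46, adjusted p = 2.6e-05). Heyl libraries did not overlap between the cell classes, a separation in this direction that 11.0% of all genes showed, whereas those of Nrarp did. Both genes, like Numbl above, had CD45+ medians under 1 CPM and CD45- levels above it. They thus passed the filter mainly through the cell class in which they were high, and their direction is a description only. The CD45+ medians of Heyl and Nrarp are close to the level of 3 reads (0.103 to 0.201 CPM). The size of these 2 folds therefore depends on the prior count.

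Of 4 further ligands 2 were tested. Dner, a non-canonical ligand, was higher in CD45+ cells (medians 2.63 and 0.217 CPM, adjusted p = 3.8e-06), and Dlk2, a protein related to the Delta-like ligands, was lower (medians 0.0655 and 0.3996 CPM, adjusted p = 0.00351, edgeR quasi-likelihood test). Both are low, their fitted folds depend on the prior count and are not given, and the Dlk2 median in CD45+ cells is under the level of 3 reads. Dner reached 4.21 CPM in CD45+ and 1.21 CPM in CD45- libraries, and Dlk2 0.361 and 1.21 CPM. Each thus passed the filter mainly through the cell class in which it was high, and its direction is a description only. The other 7 genes did not pass the filter, with between 0 reads in all libraries (Dlk1) and 202 (Dtx1), among them the targets Hes5 (7 reads) and Hey2 (135 reads).

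**Figure D5:**
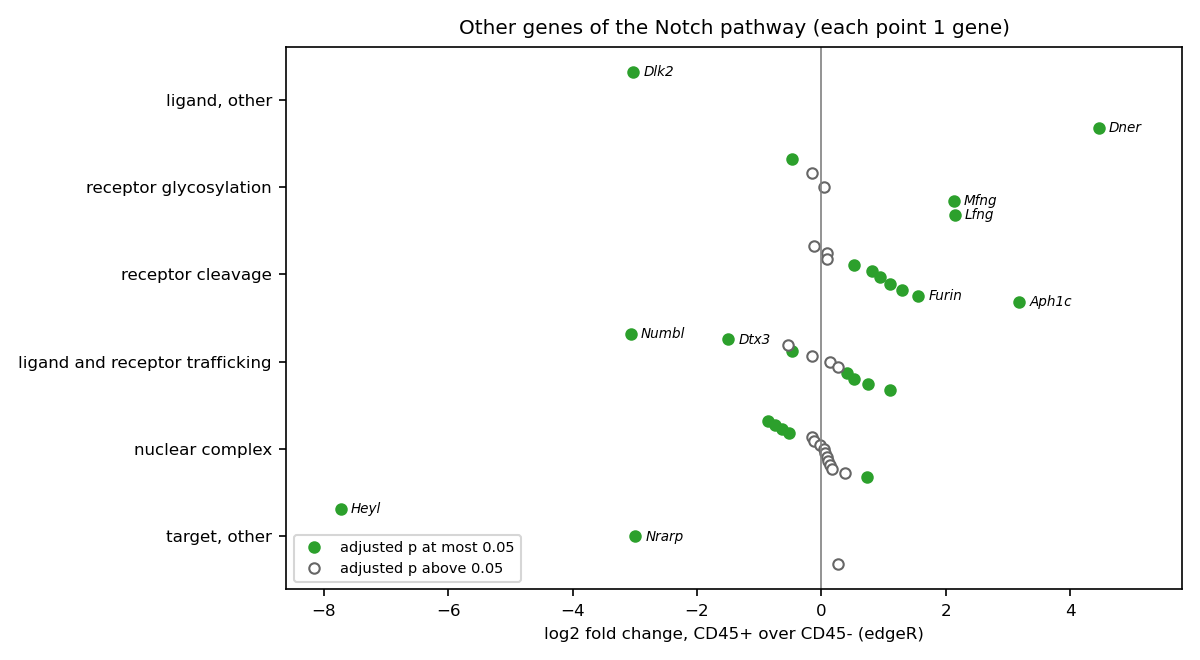
Log2 fold changes of CD45+ over CD45- cells for the 46 tested genes of the 6 further lists of the pathway, with 1 point per gene, filled green where the adjusted p was at most 0.05, and names for the largest changes. The receptor cleavage list lies mostly right of 0, with 7 of 10 genes higher beside 32.6% of all genes. Heyl lies farthest left at -7.73, a size that depends on the prior count.

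Between Osx+ and Osx- CD45- cells, 4 of the 46 genes passed, 3 as higher and 1 as lower, beside the 1.89% of all genes. Hes6, a relative of Hes1 that counteracts it, had 6.17, 10.7 and 12.2 CPM in Osx+ and 3.38, 4.35 and 7.68 CPM in Osx- libraries (lowest, median and highest; log2 difference 1.06, SE 0.23, adjusted p = 0.0315). Dtx4, another Deltex gene, had medians of 28.6 and 15.95 CPM (0.88, SE 0.20, adjusted p = 0.0330), and Neurl1a, a ubiquitin ligase of the Neuralized class that acts on ligands, 1.41 and 0.459 CPM (1.497, SE 0.37, adjusted p = 0.0487, edgeR quasi-likelihood test). All of these overlapped between Osx+ and Osx- libraries. Neurl1a ranged from 0.308 to 2.91 CPM in Osx+ and from 0.158 to 0.661 CPM in Osx- libraries. In Osx+ CD45- cells its log2 difference of Cdh2-cKO over wild type was -2.34 (SE 0.59, adjusted p = 0.221, edgeR quasi-likelihood test). The same difference was -0.82 for Dtx4 (SE 0.31) and 0.22 for Hes6 (SE 0.36). Alternative fits were compared for the members only. Dner was lower in Osx+ cells (adjusted p = 0.0248): 3 of the 4 Osx+ libraries had no read and the other had 3, while the 6 Osx- libraries had between 4 and 22 reads, or 0.184 to 1.21 CPM, and no fold is given at this level. The highest Dner value among them, 1.21 CPM, came from wild type Osx- CD45- replicate 3, the CD45- library with the most leukocyte markers. Wild type Osx- CD45- replicates 1 and 2 had 0.184 and 0.665 CPM of Dner at 110 and 1260 CPM of leukocyte markers. Cdh2-cKO Osx- CD45- replicates 1, 2 and 3 had 0.999, 0.533 and 0.250 CPM of Dner at 249, 319 and 261 CPM. Among Osx+ CD45- libraries the one with 3 Dner reads had 2166 CPM of leukocyte markers. The Osx+ CD45- libraries at 68.9, 2010 and 5021 CPM had no Dner read. The part of leukocytes in the Dner values was not tested. Between genotypes 0 of the 46 genes passed in each population in the edgeR quasi-likelihood test, with 8 at an unadjusted p under 0.05 in Osx+ CD45-, 2 in Osx+ CD45+, 5 in Osx- CD45+ and 4 in Osx- CD45- cells. Between Osx+ and Osx- CD45+ cells 0 passed as well, with 2 at an unadjusted p under 0.05.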

How the data were processed

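cDNA made with the SMARTer v1 kit, which does not mark strand, had been sequenced from sorted cells with a mean RNA integrity number of 8.95. Per the submitters' processing notes, the authors aligned reads with STAR 2.0.4b to GRCm38 and counted them on Ensembl genes with featureCounts 1.45 of the Subread package. The authors counted uniquely aligned, unambiguous reads, and the strand setting is not given in the sources used here. The deposited counts are raw whole numbers per gene. The deposited CPM values are counts scaled by the library total, and the deposited RPKM values are these per kilobase, both made by the authors. CPM and RPKM columns were read only to check them (largest relative deviation from the counts 5.1e-14).

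The 355 rRNA genes were removed, and a gene was tested where 2 or more libraries held over 1 CPM of it, which left 15018 genes. TMM factors were computed, 8 group means were fitted to all 22 libraries with edgeR 4.0.16 (R 4.3.3), and 11 contrasts were tested with its quasi-likelihood test, with Benjamini-Hochberg adjustment and a threshold of 0.05. Contrasts share libraries and are not independent of one another. limma 3.58.1 (voomWithQualityWeights) and DESeq2 1.42.0 were alternatives. Log2 CPM for correlations used a prior count of 2, and summed markers log2(CPM + 1). The fit was also run on simulated counts with independent libraries and few changed genes. That setting differs from these data, and no result here rests on it. Replicate pairs differed by more than sampling noise (chi-square per degree of freedom of at least 51.3 in 20 pairs), so none was merged.

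The members and lists were chosen with earlier results of these data known. The text names the 10 members, Cdh2, the 2 genes of smallest adjusted p per pathway list between CD45+ and CD45- cells, every pathway gene that passed between genotypes or between Osx+ and Osx-, and the 3 genes most like each member, of which 1 is not reported here. Other genes (Sp7, Aph1b, Aph1c, Dlk1, Dtx1, Hes5 and Hey2) were named after their values were seen. All libraries had labels that gave their group.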

Additional observations from a re-analysis of the deposited data

How the results depend on the processing

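The counts of members called were compared over voom, DESeq2, RLE factors, no filter on low counts, a block for the replicate number (over both genotypes and within genotype), leaving out both libraries that stood apart, leaving out each library, and a rule that also asked for a log2 fold change of at least 2. None of the 22 called values changed sign. Leaving the stricter rule aside, 3 lost the call in some alternative (Notch2 over both genotypes and in the wild type, and Dll1 in the wild type). With the stricter rule 4 members stayed called between CD45+ and CD45- cells in both genotypes together, in the wild type and in Cdh2-cKO. The main fit called 8, 7 and 7 there. With voom 1 member (Notch3) was called between Osx+ and Osx- CD45- cells. Leaving out 1 library gave between 7 and 8 members over both genotypes, 5 and 8 in the wild type and 7 and 7 in Cdh2-cKO, and 0 members in every other comparison. Of the 88 values that were not called, 46 changed sign in some alternative and 2 gained a call (Notch3 above and Jag2 in the wild type). Scaling by library totals in place of TMM moved none of the 40 population means by more than 1 SD. Without both libraries that stood apart, 7 members were called in each of the 3 CD45 comparisons.

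The number of all genes called between Osx+ and Osx- CD45- cells was 284 in edgeR, 718 in voom and 982 in DESeq2, 92 without the filter and 1509 without both libraries that stood apart. DESeq2 called 134, 1, 26 and 522 genes between genotypes in Osx+ CD45-, Osx+ CD45+, Osx- CD45+ and Osx- CD45- cells, where edgeR called 1, 0, 0 and 0, and voom 0 in each; without both libraries edgeR called 68 in the first. For the difference of CD45 effects DESeq2 called 30 genes and edgeR 0, for that of Osx effects DESeq2 46, voom 3 and edgeR 1 (112 without both libraries), and between Osx+ and Osx- CD45+ cells DESeq2 6 and edgeR 1.

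The labels do not say whether libraries with the same replicate number belong together. Same-numbered libraries of a genotype correlated in their deviations with r from -0.30 to 0.59 (median 0.05), above 0.1 in 10 of 30 pairs. By genotype these were 6 of 15 pairs in Cdh2-cKO and 4 of 15 in the wild type. Differently numbered libraries had r above 0.1 in 1 of 30 and 5 of 30 pairs. The numbers may thus pair the libraries in part, and the main fit held no term for them. With the replicate block 8 members were called between CD45+ and CD45- cells, 7 in each genotype and 0 in every other comparison, and the block changed no call. Groups of 2 or 3 libraries and levels of Dll1, Hey1, Jag2 and Notch4 near 1 CPM limit what could be detected, and the absence of a call does not show that levels were equal.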
